A study of Mus musculus with 24 samples.

Results

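The EGF family ligands Egf, Tgfa, Areg, Ereg, Hbegf, Btc and Nrg1 and the ERBB receptors Egfr, Erbb2 and Erbb3 were followed in ductal and stromal cells of the mouse liver. The 10 genes, 7 ligands and 3 receptors, were taken by symbol from both expression tables, which share 49542 genes. RNA-seq was performed on 24 samples. The homeostasis experiment holds 4 populations, each sorted from the same 3 littermates, mice A, E and F. The animals were 12 weeks old, on a C57BL/6 background and heterozygous for the Pdgfra-H2B-GFP reporter (B6.129S4-Pdgfratm11(EGFP)Sor/J), in which GFP from the Pdgfra locus stands for PDGFRα at the gate. A and E were male and F was female. Every population was depleted of CD11b+, CD45+ and CD31+ cells. EpCAM+ ductal cells (DCs), the cells that line the bile ducts, were compared with 3 other populations, gated as PDGFRα+SCA1+, as PDGFRα+SCA1- or as PDGFRα-SCA1+.

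The transwell experiment used wild type C57BL/6 mice of 8 to 12 weeks, with 6 groups and n = 2 each. Freshly sorted EpCAM+ DCs (DC day 0) were grown for 15 days either alone in expansion medium as EM organoids, or as co-cultured organoids on an insert above SCA1+Msc cells, with no cell contact. EM contains recombinant EGF, whereas the co-culture took place in mesenchymal medium (MM), to which no EGF was added, so medium and partner cells differ together between the organoid groups. The study reports that organoids in MM without partner cells barely grew and that sequencing them was not possible. SCA1+Msc cells were sorted on SCA1 alone among CD45-CD11b-CD31- cells, with no PDGFRα gate, from a pair of littermates, and expanded for 7 days before DCs of other littermates were added. The labels name these cells both mesenchymal and ductal, and they are treated here as mesenchymal. RNA of these cells was taken on day 0 and at the end of 15 days, with or without organoids.

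EGF family ligands, known in the liver for their part in growth and repair after injury, are made as membrane-bound precursors that proteases such as ADAM17 and ADAM10 release. EGF, TGFα and amphiregulin bind EGFR, whereas betacellulin, HB-EGF and epiregulin also bind ERBB4, and neuregulin 1 binds ERBB3 and ERBB4. Ligand binding joins receptors into dimers, ERBB2 has no known ligand of its own and ERBB3 has little kinase activity, and the dimers feed the RAS-ERK cascade.

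Depth in reads (M, 1e+06 reads), recovered from low values that correspond to whole reads, was 19.6M to 25.7M in the homeostasis samples and 19.3M to 28.0M in the transwell samples. A floor of 3 reads per library was set, under which a gene was not told apart from absence, and which covers counting error only. Homeostasis levels are the deposited values, which are scaled like TPM (a level per exon length, with a fixed sum in each sample) but were 0.722 to 1.39 times the TPM of the same gene. Transwell levels are TPM. This factor differs between genes of a sample and, for the same gene, between samples, so homeostasis folds and fold changes across groups carry it. Hbegf in PDGFRα+SCA1- cells of mouse A was deposited at 174 and was 242 as TPM. With the factor undone, all 22 homeostasis tests of members that passed still passed. Shares of ligands were taken from TPM with the factor undone. Levels were not compared between the experiments. Ductal markers (6 genes with Epcam and Krt19) summed to 58481 to 79014 in DCs, 107 to 377 in PDGFRα+SCA1- samples, 83.4 to 119 where SCA1 was positive as well, and 82.6 to 3953 in PDGFRα-SCA1+ samples, where mouse E was highest. Mesenchymal markers (6 genes with Pdgfra and Col1a1) summed to 28547 to 51009.8 and 28741 to 32703 in PDGFRα+SCA1- and PDGFRα+SCA1+ samples but to 282 to 466 without PDGFRα. PDGFRα-SCA1+ cells, which the labels call mesenchymal, held Pdgfra at 0.0276 to 0.0402 and summed endothelial markers (6 genes) at 2637 to 2869, against 14.9 to 17.0 and 2.59 to 21.8 in the PDGFRα+ populations. Pecam1, which encodes the CD31 used for depletion, was at 726 to 929 there, so these cells are called by their gate below. SCA1+Msc cells at day 0 held mesenchymal markers at 22309 to 23671 and endothelial markers at 208 to 237 TPM. Their ductal markers were at 1283 to 2705 TPM. Hepatocyte markers (6 genes with Alb) summed to 18649 to 23252 TPM in these cells and 4317 to 5476 in day 0 DCs. Among homeostasis samples this sum was 5855 to 6994 for DCs and 2219 to 6832 for PDGFRα-SCA1+ cells. It was 873 to 1587 for PDGFRα+ cells lacking SCA1 but 991 to 2508 for those carrying it. The part of hepatocyte transcripts in comparisons between populations or with day 0 was not tested. In bulk samples fewer cells of a type and less RNA per cell cannot be told apart.

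Among the ligands of freshly sorted cells, Hbegf led in DCs and in PDGFRα-SCA1+ cells, Ereg and Hbegf shared the lead in both PDGFRα+ populations, and Egf was nowhere above 0.513. Ereg was the only member that passed the test as higher in PDGFRα+ cells than in DCs, and Tgfa, Hbegf, Btc and Erbb3 passed as lower there. Of the 9 members tested (Egf was too low), 5 passed the test between PDGFRα+SCA1+ cells and DCs (1 higher, 4 lower), where 23.8% of 17028 genes passed. Between PDGFRα+SCA1- cells and DCs 5 passed (1 higher, 4 lower, all genes 28.8%), and between PDGFRα-SCA1+ cells and DCs 4 passed, all lower (all genes 22.8%). These comparisons share the DC samples.

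Hbegf, which encodes heparin-binding EGF-like growth factor, made up 92.6% to 95.6% of the summed TPM of the 7 ligands in DCs. Its values in mice A, E and F were 2276, 2021 and 2084 in DCs, 174, 187 and 149 in PDGFRα+SCA1- cells, 161, 182 and 183 in PDGFRα+SCA1+ cells and 949.5, 936 and 1703 in PDGFRα-SCA1+ cells. DCs lay above all stromal samples, and both PDGFRα+ populations lay below all others. Relative to DCs, Hbegf was 12.1-fold lower in PDGFRα+SCA1+ cells (log2 fold change of -3.60 ± 0.23, adjusted p = 4.48e-07) and 12.5-fold lower in PDGFRα+SCA1- cells (log2 fold change of -3.64 ± 0.23, adjusted p = 4.11e-07). Homeostasis folds are of deposited values. With the factor undone, Hbegf was at 2213, 2079 and 2084 in DCs. It was then at 242, 185 and 183 in PDGFRα+SCA1- cells and 191, 224 and 194 in PDGFRα+SCA1+ cells, so these folds were smaller. Fold changes with their SE (±) are on the log2(value + 1) scale from limma, n = 3 mice, which understates the change of low genes, and folds without one are ratios of group means. The lower level in PDGFRα-SCA1+ cells (1.78-fold, log2 fold change of -0.89 ± 0.23, adjusted p = 0.0147) lost its call when the DC sample of mouse A, or the PDGFRα-SCA1+ sample of mouse A or E, was left out (adjusted p up to 0.0648).

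Btc and Tgfa were highest in DCs as well. Btc, which encodes betacellulin, was at 73.8, 87.1 and 82.4 in DCs and at 0 to 6.77 in the 9 other samples, where it was listed at 0 in 4. The groups did not overlap, and Btc was lower in PDGFRα+SCA1+ (log2 fold change of -5.06 ± 0.91, adjusted p = 0.00139), PDGFRα+SCA1- (log2 fold change of -5.37 ± 0.91, adjusted p = 0.00085) as well as in PDGFRα-SCA1+ cells (log2 fold change of -5.63 ± 0.91, adjusted p = 0.000656). Tgfa, which encodes transforming growth factor α, was at 40.0, 57.8 and 43.7 in DCs, 8.12, 4.40 and 7.43 in PDGFRα+SCA1-, 1.76, 2.78 and 4.28 in PDGFRα+SCA1+ and 31.8, 28.1 and 24.2 in PDGFRα-SCA1+ cells. As with Hbegf, all DC samples lay above the others and all PDGFRα+ samples below the rest. Tgfa was 16.0-fold lower in PDGFRα+SCA1+ cells than in DCs (log2 fold change of -3.64 ± 0.41, adjusted p = 3.68e-05) and 7.10-fold lower in PDGFRα+SCA1- cells (log2 fold change of -2.67 ± 0.41, adjusted p = 0.000405). Between PDGFRα-SCA1+ cells and DCs the Tgfa difference of -0.72 (95% interval -1.62 to 0.17) did not pass the test (adjusted p = 0.251). In PDGFRα-SCA1+ cells of mouse E, where the ductal marker sum was highest, Epcam was at 148 and Btc, at 0, 3.23 and 0.0753 in mice A, E and F, was highest as well. Erbb3 was at 0 there, Tgfa and Hbegf were not at their highest, and the part of ductal transcripts in these values was not tested.

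Ereg, which encodes epiregulin, had the opposite distribution. Its values were 131, 391 and 153 in PDGFRα+SCA1- and 177, 127 and 203 in PDGFRα+SCA1+ cells, whereas DCs held 0.104, 0 and 0.0880 and PDGFRα-SCA1+ cells 0.0347, 0.0412 and 0.0440, at no more than 3 reads in any of these 6 samples. The populations on either side did not overlap. Ereg passed the filter on low values through PDGFRα+ samples alone, where it was high. The higher level passed the test in PDGFRα+SCA1+ cells (log2 fold change of 7.30 ± 0.46, adjusted p = 3.46e-07) and in PDGFRα+SCA1- cells (log2 fold change of 7.55 ± 0.46, adjusted p = 2.92e-07) relative to DCs. Its share of the summed ligand TPM was 37.8% to 46.3% in PDGFRα+SCA1+ cells, where Hbegf had the larger share in each mouse at 49.9% to 55.9%. In PDGFRα+SCA1- cells Ereg had 36.4% to 59.2% and Hbegf 33.7% to 61.1%, and Ereg was ahead in mouse E.

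**Figure D1:**
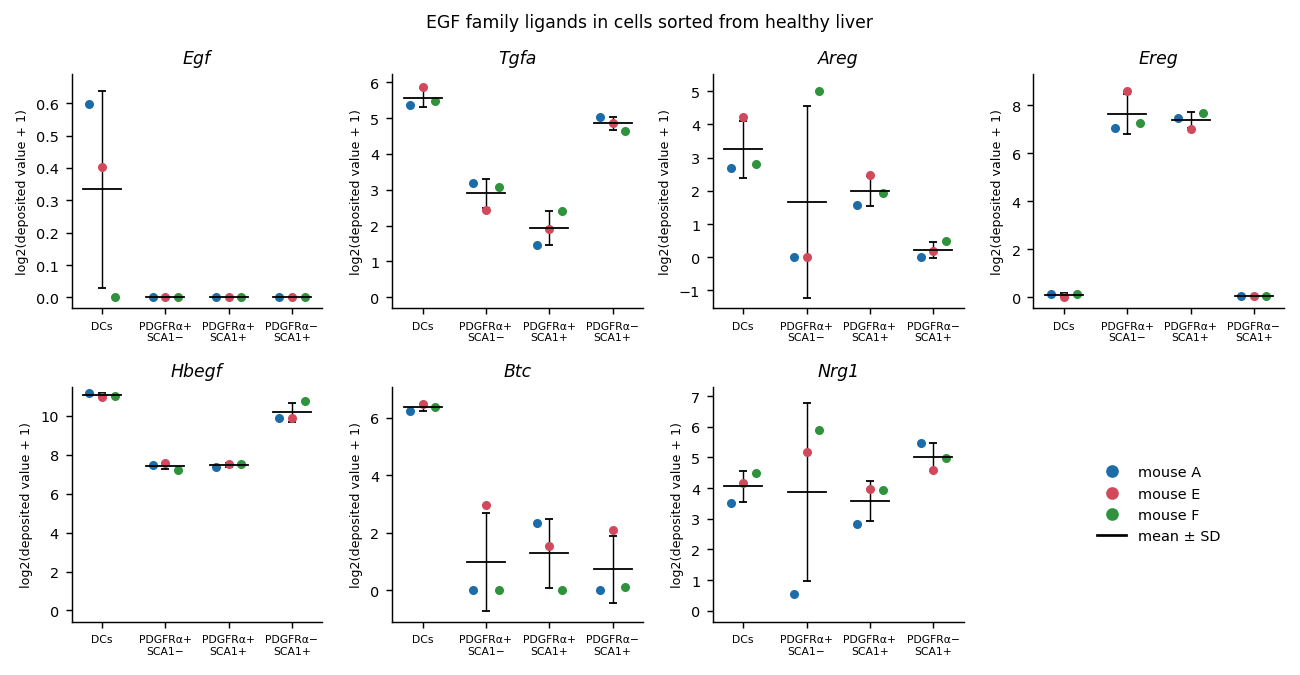
Levels of the 7 ligands as log2(deposited value + 1) in the 4 sorted populations, 1 point per mouse (A, E and F), with the mean and SD of the 3 log2 values and a separate vertical scale in each panel. Hbegf, Btc and Tgfa are highest in DCs, while Ereg is at least 127 in every PDGFRα+ sample and at most 0.104 in all others.

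Areg lies near Ereg and Btc on chromosome 5 (GRCm38 annotation), where Epgn starts at 91027464, Ereg at 91074622 and Areg at 91139599 on the plus strand, and Btc runs from 91402994 to 91357261 on the minus strand. The promoters of Areg and Btc, 250 bases before to 50 after the annotated start, are shown because Areg rose in cultured organoids (values further on) while Btc passed no test there. The promoter of Ereg, which rose in co-culture, is not shown. The RefSeq table (GRCm38.p6) holds promoters of 6 of the 10 members. Capitals mark TGACGTCA, the cyclic AMP response element, and TATAAA, the TATA box. Both strands were searched for these and for the AP-1 motif TGANTCA and the TEAD motif GGAATG, and none of the 4 motifs contains another.
Areg, chr5:91139349-91139648, plus strand: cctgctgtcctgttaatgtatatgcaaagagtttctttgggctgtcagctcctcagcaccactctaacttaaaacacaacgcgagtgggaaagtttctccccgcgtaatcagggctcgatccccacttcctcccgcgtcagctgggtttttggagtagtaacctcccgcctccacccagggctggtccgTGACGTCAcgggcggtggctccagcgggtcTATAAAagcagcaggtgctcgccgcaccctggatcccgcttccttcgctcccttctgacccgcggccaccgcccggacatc
Btc, chr5:91402945-91403244, minus strand: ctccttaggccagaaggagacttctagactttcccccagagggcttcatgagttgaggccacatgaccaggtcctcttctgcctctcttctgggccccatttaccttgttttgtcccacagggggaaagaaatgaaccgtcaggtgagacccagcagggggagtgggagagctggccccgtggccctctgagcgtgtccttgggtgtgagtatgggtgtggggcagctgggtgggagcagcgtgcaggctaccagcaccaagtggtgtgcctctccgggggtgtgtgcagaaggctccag
The Areg promoter holds 1 TGACGTCA, whose first base is 61 bases before the start, and 1 TATAAA at 31 bases before it, and neither of the other motifs. The Btc promoter holds none of the 4 motifs. Of the other members with a promoter given, those of Egf, Tgfa and Egfr hold none either. The Erbb2 promoter holds 1 GGAATG and none of the others. Erbb2 rose in both kinds of organoid and Egfr in co-culture, so the pair shown does not stand for members that rose and did not. The part of a motif in these levels was not tested. Of all 32851 promoters given, 1.79% held TGACGTCA, 13.6% TATAAA, 7.81% TGANTCA and 14.7% GGAATG.

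In freshly sorted cells Areg, which encodes amphiregulin, was low and uneven. Its values were 5.44, 17.8 and 6.05 in DCs, 0, 0 and 31.3 in PDGFRα+SCA1-, 1.97, 4.54 and 2.86 in PDGFRα+SCA1+ and 0, 0.130 and 0.394 in PDGFRα-SCA1+ cells. In PDGFRα+SCA1- cells the whole level came from mouse F. None of the 6 comparisons passed the test, and the largest difference, between PDGFRα-SCA1+ cells and DCs, was -3.03 (95% interval -5.44 to -0.61) with an adjusted p of 0.0713. Nrg1, which encodes neuregulin 1, was at 10.5, 16.9 and 21.7 in DCs, 0.453, 35.2 and 59.0 in PDGFRα+SCA1-, 6.05, 14.7 and 14.4 in PDGFRα+SCA1+ and 43.4, 23.0 and 30.8 in PDGFRα-SCA1+ cells. Mouse A of the PDGFRα+SCA1- cells stood apart with 0.453, and no comparison of Nrg1 passed the test. The same sample held the lowest Egfr of the PDGFRα+ samples and no Erbb2. Egf, which encodes the ligand that names the family, was at 0.513, 0.322 and 0 in DCs and was listed at 0 in the 9 other samples.

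Of the receptors, Erbb3 was high in DCs alone, Egfr was low in PDGFRα-SCA1+ cells alone, and Erbb2 passed no test. Erbb3, the neuregulin receptor, was at 37.5, 48.9 and 57.2 in DCs, 0, 0 and 0.0251 in PDGFRα+SCA1-, 0.567, 0.0251 and 0 in PDGFRα+SCA1+ and 0 in each of the PDGFRα-SCA1+ samples. Only DCs held more than 20 reads. Entry to the tests needed a value of 1, which Erbb3 reached in DCs alone. It was thus let in by the group where it was high, and its levels, not the p-values, carry the difference. Erbb3 was lower in PDGFRα+SCA1+ (log2 fold change of -5.36 ± 0.44, adjusted p = 3.09e-06), PDGFRα+SCA1- (log2 fold change of -5.58 ± 0.44, adjusted p = 2.21e-06) and also in PDGFRα-SCA1+ cells (log2 fold change of -5.59 ± 0.44, adjusted p = 2.42e-06), for the last at least 566-fold with the zeros set to 3 reads per library. A fitted fold change against a group at 0 depends on the pseudocount and is no bound. Egfr, the receptor of most of these ligands, was at 30.4, 35.9 and 25.4 in DCs, 5.03, 33.6 and 36.1 in PDGFRα+SCA1-, 27.2, 33.0 and 30.5 in PDGFRα+SCA1+ and 2.003, 0.321 and 0.0135 in PDGFRα-SCA1+ cells. PDGFRα-SCA1+ cells lay below all other samples. Egfr was 39.3-fold lower there than in DCs (log2 fold change of -4.30 ± 0.67, adjusted p = 0.000483), or 183-fold without mouse A of the PDGFRα-SCA1+ cells. Between PDGFRα+SCA1+ cells and DCs it differed by -0.01 (95% interval -1.46 to 1.45), with overlapping values. Erbb2, the receptor without a ligand of its own, was at 20.8, 23.1 and 36.1 in DCs but at 0, 5.64 and 15.9 in PDGFRα+SCA1- cells, 23.7, 5.50 and 8.07 in those with SCA1 and 8.91, 9.25 and 6.13 in PDGFRα-SCA1+ cells. No comparison of Erbb2 passed the test, the nearest being PDGFRα+SCA1- cells and DCs (-2.48, 95% interval -4.38 to -0.58, adjusted p = 0.0507), where the sample of mouse A was listed at 0.

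**Figure D2:**
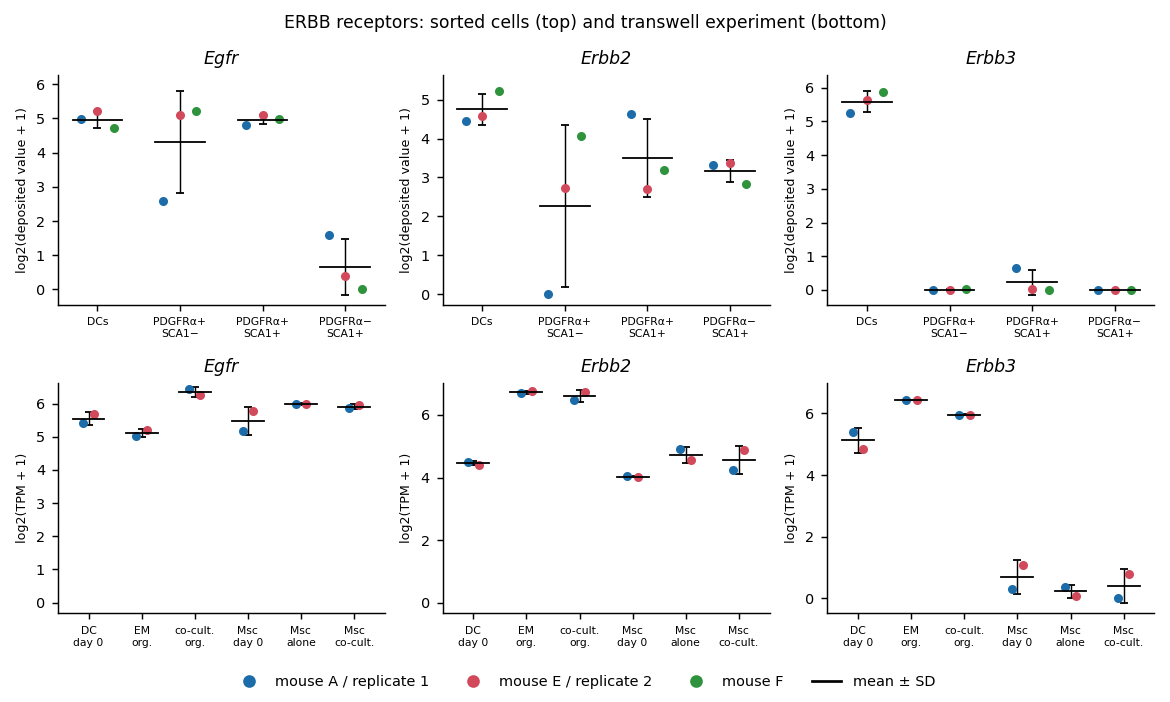
Levels of Egfr, Erbb2 and Erbb3 as log2(deposited value + 1) in the sorted populations (top, 1 point per mouse) and as log2(TPM + 1) in the transwell groups (bottom, 1 point per replicate), with the mean and SD of the log2 values. Each panel has its own vertical scale. Erbb3 is at least 27.8 in every sample of DCs and organoids and at most 1.11 in all other samples.

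PDGFRα-SCA1+ cells differed from PDGFRα+SCA1+ cells in 4 members (all genes 18.8%), with Tgfa (log2 fold change of 2.92 ± 0.41, adjusted p = 0.000317) and Hbegf (log2 fold change of 2.71 ± 0.23, adjusted p = 7.55e-06) higher and Ereg (log2 fold change of -7.33 ± 0.46, adjusted p = 8.14e-07) and Egfr (log2 fold change of -4.29 ± 0.67, adjusted p = 0.000672) lower. The same 4 passed in the same directions against PDGFRα+SCA1- cells (all genes 21.5%), with Tgfa 4.21-fold and Hbegf 7.03-fold higher and Egfr 32.0-fold lower, or 149-fold without mouse A of the PDGFRα-SCA1+ cells. These comparisons share the PDGFRα-SCA1+ samples. Between PDGFRα+SCA1+ and PDGFRα+SCA1- cells none of the 9 passed in limma, where 0.587% of all genes passed. Of the 9, 1 had an unadjusted p under 0.05, for which no share over all genes was taken. That member was Tgfa at -0.97 (95% interval -1.87 to -0.07), and the Ereg difference was -0.26 (95% interval -1.25 to 0.74). Summed smooth muscle markers (4 genes) were at 1037 to 2370.4 in PDGFRα+SCA1- cells but 127 to 167 in PDGFRα+SCA1+ cells, and their part in these values was not tested.

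Other genes of the pathway were counted from lists of the remaining ligands and receptor, shedding, inhibitors, adaptors and the ERK cascade, and response genes. Of all genes, 23.8% passed between PDGFRα+SCA1+ cells and DCs, 28.8% for PDGFRα+SCA1- cells and 22.8% for PDGFRα-SCA1+ cells. List counts near these shares are no result about a list. Erbb4, the fourth receptor of the family, was at 28.5, 25.2 and 16.4 in DCs and at no more than 2 reads in any other sample (log2 fold change of -4.56 ± 0.40, adjusted p = 5.41e-06 in PDGFRα+SCA1+ cells). Like Erbb3, it entered the tests through DCs alone, the group where it was high. Epgn was above 0 in 1 of the 12 sorted samples, Nrg3 in none, Nrg2 reached 0.944 and Nrg4 1.70, and these 4 ligands were too low to be tested. Of 4 shedding genes, 2 were lower in PDGFRα+SCA1+ cells than in DCs, with Rhbdf2, which helps ADAM17 to mature, falling most (log2 fold change of -3.07 ± 0.48, adjusted p = 0.000509), and Adam10 was higher in PDGFRα-SCA1+ cells than in PDGFRα+SCA1+ cells (log2 fold change of 3.01 ± 0.26, adjusted p = 8.17e-06). Of 10 inhibitors, 3 were higher in PDGFRα+SCA1+ cells (Lrig3, Spry1 and Spry4) and Errfi1, a feedback inhibitor that binds EGFR, was lower (log2 fold change of -1.56 ± 0.20, adjusted p = 0.000124). Of 16 adaptors and kinases, 2 were lower and none higher there, with Nras lowest (log2 fold change of -2.58 ± 0.65, adjusted p = 0.0114). Of 11 ERK response genes, 3 were higher and 4 lower in PDGFRα+SCA1+ cells than in DCs, led by Phlda1 (log2 fold change of 1.89 ± 0.25, adjusted p = 0.000152) and Etv4 (log2 fold change of -3.22 ± 0.52, adjusted p = 0.000656). In PDGFRα+SCA1- cells 3 response genes were higher and 6 lower than in DCs, and in PDGFRα-SCA1+ cells none was higher and 4 were lower, among them Fosl1 (log2 fold change of -4.33 ± 0.29, adjusted p = 8.69e-07). Of the inhibitors 3 were higher and 2 lower in PDGFRα+SCA1- cells, whereas PDGFRα-SCA1+ cells had 2 in each direction. In PDGFRα+SCA1+ cells the median log2 fold change of the inhibitors was 0.30, that of the response genes -0.69 and that of all genes -0.28. With the factor of the deposited values undone, the median of all genes was -0.12.

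In the transwell experiment Areg and Erbb2 rose and Hbegf fell in both kinds of organoid, and Areg, Ereg and Egfr were higher in co-cultured than in EM organoids. Among the 9 tested members, 4 passed between EM organoids and day 0 (3 higher, 1 lower) against 44.3% of 18117 genes, 5 between co-cultured organoids and day 0 (4 higher, 1 lower) against 42.3%, and 3 between the organoid groups, all higher in co-culture, against 12.9%. The first pair of comparisons shares the day 0 samples, and n = 2 in each group.

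Areg ranged from 0 to 556 TPM over the transwell samples. Its TPM in replicates 1 and 2 was 6.03 and 2.10 in DCs at day 0, 30.2 and 12.0 in EM organoids and 556 and 502 in co-cultured organoids. The 3 groups did not overlap, and co-cultured organoids lay furthest from the rest. Areg rose 5.19-fold in EM organoids (log2 fold change of 2.11 ± 0.45, adjusted p = 0.00398) and 130.1-fold in co-cultured organoids (log2 fold change of 6.82 ± 0.45, adjusted p = 3.74e-06) relative to day 0. Between the organoid groups it was 25.1-fold higher in co-culture (log2 fold change of 4.72 ± 0.45, adjusted p = 0.000185). It made up 69.7% to 69.8% of the summed ligand level in co-cultured organoids, 6.51% to 15.2% in EM organoids and 0.127% to 0.369% at day 0. With replicate 1 of DC day 0 left out, these folds over day 0 were 10.03 and 251, and without replicate 1 of the EM organoids Areg was 2.95-fold higher in EM than at day 0 and 44.1-fold higher in co-culture than in EM.

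Ereg rose in co-cultured organoids. Its TPM was 0.788 and 0.658 at day 0, 1.12 and 1.29 in EM organoids and 15.1 and 16.3 in co-cultured organoids. The level of co-cultured organoids was above all other epithelial samples, 21.7-fold higher than at day 0 (log2 fold change of 3.28 ± 0.19, adjusted p = 2e-06) and 13.0-fold higher than in EM organoids (log2 fold change of 2.92 ± 0.19, adjusted p = 2.09e-05). SCA1+Msc cells, which shared the well, held Ereg at 49.96 and 46.6. Summed mesenchymal markers were at 2.31 to 14.9 in co-cultured organoids, 1.15 to 6.21 in EM organoids and 30892 to 32475 in co-cultured SCA1+Msc cells. The part of mesenchymal transcripts in the Ereg level of organoids was not tested.

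Other marker lists moved between the organoid groups. Summed mesothelial markers (5 genes) were at 5039 to 5199 TPM in EM and 14402 to 15317 in co-cultured organoids. Of these, Krt18, a keratin that ductal cells express too, was at 4903 and 4713 in EM and 10814 and 10522 in co-culture, Msln was at 296 and 326 in EM and 4500.2 and 3878 in co-culture, and Lrrn4 was at 0. Leukocyte markers (6 genes) were at 24.3 to 28.5 in EM and 75.3 to 94.2 in co-culture. Hepatocyte markers (6 genes) were at 1348 to 1415 in EM and 154 to 349 in co-culture. Ly6a, which encodes SCA1, was at 612 to 621 in EM and 4465 to 5102 in co-culture. The part of these markers in the Areg, Ereg and Egfr differences was not tested.

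Hbegf, the leading ligand of fresh DCs, fell in both organoid groups. According to the methods, livers were digested with collagenase and dispase before cells were sorted. The part of this step in the day 0 levels of Hbegf and of the ERK response genes, in either lineage, was not tested. Its TPM was 1530.0 and 1527 at day 0, 109 and 118 in EM organoids and 143 and 125 in co-cultured organoids. It fell 13.5-fold in EM (log2 fold change of -3.74 ± 0.19, adjusted p = 8.61e-07) and 11.4-fold in co-culture (log2 fold change of -3.50 ± 0.19, adjusted p = 1.35e-06), and the organoid groups differed by 0.23 (95% interval -0.20 to 0.66), which did not pass. Btc and Tgfa passed no test among epithelial groups. Btc TPM was 38.1 and 48.9 at day 0, 10.5 and 19.3 in EM and 30.3 and 19.9 in co-cultured organoids, and Tgfa TPM 54.6 and 65.8, 44.1 and 30.6 and 49.1 and 53.3. The nearest was Btc in EM organoids (-1.53, 95% interval -2.96 to -0.10, adjusted p = 0.0799). Nrg1 was at 2.18 to 6.93 and Egf at 0 to 0.889 across the 6 epithelial samples, with Egf listed at 0 in both co-cultured samples.

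**Figure D3:**
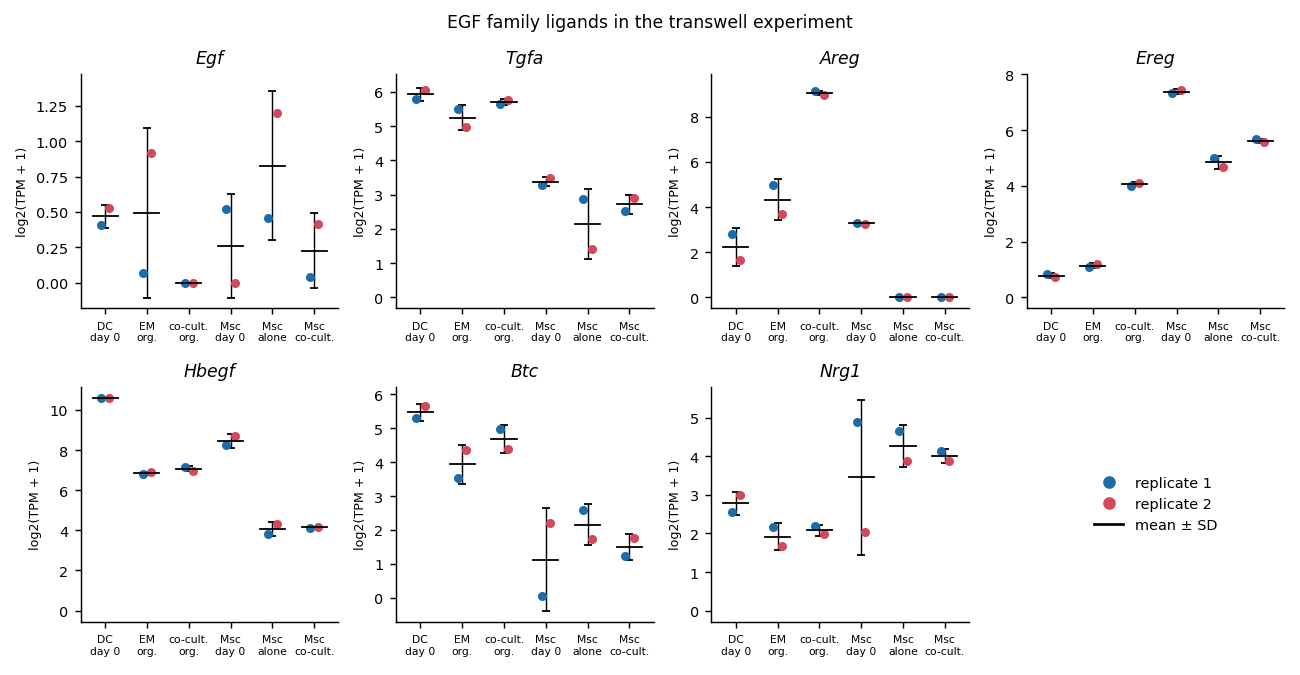
Levels of the 7 ligands as log2(TPM + 1) in the 6 transwell groups, 1 point per replicate, with the mean and SD of the 2 log2 values and a separate vertical scale in each panel. Areg reaches 502 to 556 TPM in co-cultured organoids and is 0 in all 4 cultured SCA1+Msc samples, while Hbegf is lower in every cultured sample than in the day 0 samples of its own lineage.

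Receptors changed in organoids as well. Erbb2 TPM was 21.7 and 20.2 at day 0, 103 and 107 in EM organoids and 87.3 and 105 in co-cultured organoids, with cultured samples above all day 0 samples. It rose 4.997-fold in EM (log2 fold change of 2.27 ± 0.22, adjusted p = 3.68e-05) and 4.59-fold in co-culture (log2 fold change of 2.14 ± 0.22, adjusted p = 5.81e-05). Erbb3 TPM was 41.4 and 27.8 at day 0, 85.1 and 85.1 in EM and 61.3 and 60.7 in co-cultured organoids. Its rise in EM (log2 fold change of 1.30 ± 0.36, adjusted p = 0.0146) lost the call with a pseudocount of 0.1 and without DC day 0 replicate 2 or either EM sample (adjusted p up to 0.316), and the co-culture value was 0.83 (95% interval 0.02 to 1.63), which did not pass. Egfr TPM was 41.4 and 50.4 at day 0, 31.5 and 35.9 in EM and 86.1 and 75.0 in co-cultured organoids. Co-cultured organoids lay above and EM organoids below day 0, the latter by a log2 difference of -0.43 (95% interval -0.88 to 0.03) that did not pass. Egfr was 2.39-fold higher in co-cultured than in EM organoids (log2 fold change of 1.23 ± 0.20, adjusted p = 0.00386) and 1.76-fold higher than at day 0 (log2 fold change of 0.80 ± 0.20, adjusted p = 0.0101), the latter with an adjusted p of up to 0.0734 without DC day 0 replicate 1 or co-cultured replicate 1. Erbb4, not a member, went the other way, from 10.3 and 8.91 at day 0 to 1.03 and 1.09 in EM and 0.00905 and 0.140 in co-cultured organoids (log2 fold change of -2.36 ± 0.26, adjusted p = 8.56e-05 and log2 fold change of -3.30 ± 0.26, adjusted p = 1.19e-05).

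**Figure D4:**
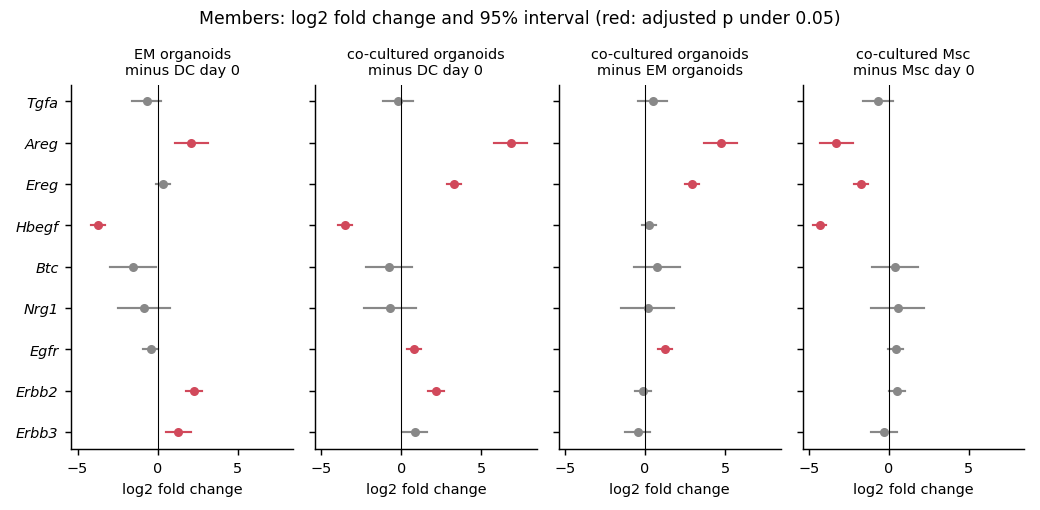
Log2 fold changes of the 9 tested members on the log2(TPM + 1) scale with 95% intervals in 4 transwell comparisons, red where the adjusted p was under 0.05 and grey otherwise, on a shared horizontal scale. Areg, Ereg and Egfr are higher in co-cultured than in EM organoids, while Hbegf falls in organoids and in SCA1+Msc cells.

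Of the 11 ERK response genes, 9 fell in EM organoids and 7 in co-cultured organoids, and none rose in either, with median log2 fold changes of -3.02 and -1.95 against 0.12 and 0.00 over all genes. Of all genes, 44.3% passed in EM and 42.3% in co-cultured organoids, and each list count stands beside these shares. Fosl1, a partner in AP-1 dimers, fell most in both (log2 fold change of -8.25 ± 0.36, adjusted p = 4.1e-07 in EM, log2 fold change of -5.62 ± 0.36, adjusted p = 3.15e-06 in co-culture). Between the organoid groups, where 12.9% of all genes passed, Dusp5, Fos, Fosl1, Phlda1 and Ier3 were higher and Egr1 was lower in co-culture. Fosl1 TPM was 5.26 and 7.15 in EM and 53.2 and 35.4 in co-cultured organoids (log2 fold change of 2.64 ± 0.36, adjusted p = 0.0014), whereas Egr1 TPM was 176 and 172 in EM and 79.1 and 63.7 in co-cultured organoids (log2 fold change of -1.28 ± 0.12, adjusted p = 0.000177). Of 10 inhibitors, 5 fell in each organoid group and none rose, a number near the share of all genes called. Errfi1 fell most (log2 fold change of -3.59 ± 0.13, adjusted p = 2e-07 in EM). Of 4 shedding genes Adam10 rose and Rhbdf1 and Rhbdf2 fell in both groups, Adam17 rose in EM, and the median was -0.50 in EM and -0.50 in co-culture. Adam10 was higher in co-cultured than in EM organoids (log2 fold change of 0.55 ± 0.13, adjusted p = 0.0235). Among 16 adaptors and kinases 3 rose and 5 fell in EM and 4 rose and 7 fell in co-culture, beside 44.3% and 42.3% of all genes called, with Mapk3 rising most in both (log2 fold change of 1.99 ± 0.20, adjusted p = 4.27e-05 in co-culture). Nrg4 was at 3.16 and 2.42 in EM and 0.0368 and 0.830 in co-cultured organoids (log2 fold change of -1.45 ± 0.33, adjusted p = 0.0179), whereas Epgn, Nrg2 and Nrg3 were too low to be tested. Nrg4 passed the filter on low values through the EM samples alone, where it was high.

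**Figure D5:**
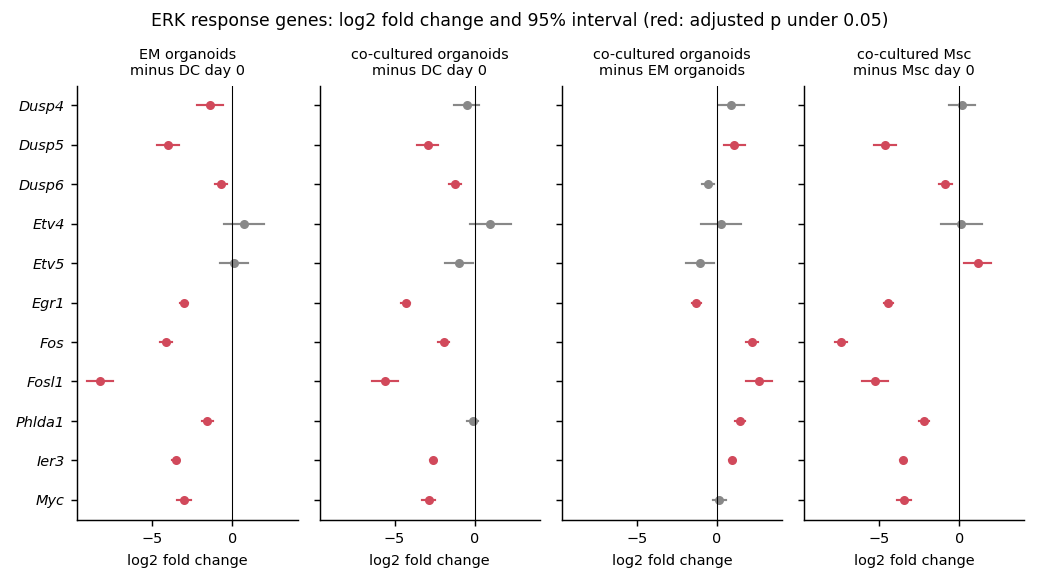
Log2 fold changes of 11 ERK response genes on the log2(TPM + 1) scale with 95% intervals in 4 transwell comparisons, red where the adjusted p was under 0.05 and grey otherwise, on a shared horizontal scale. In EM organoids 9 fall relative to day 0 (44.3% of all genes called), and 5 of the 11 are higher in co-cultured than in EM organoids (12.9% of all genes called).

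In SCA1+Msc cells Areg, Ereg and Hbegf fell in culture. Relative to day 0, 5 of 9 members passed in cells kept alone (1 higher, 4 lower) against 44.8% of all genes and 3 in co-culture, all lower, against 43.3%. The day 0 samples, shared by both comparisons, held Ereg at 159 and 173 TPM, Hbegf at 299 and 420.1 and Areg at 8.83 and 8.65. After 15 days Ereg was at 31.4 and 24.6 alone and 49.96 and 46.6 in co-culture, below both day 0 samples. It fell 5.93-fold alone (log2 fold change of -2.53 ± 0.19, adjusted p = 8.8e-06) and 3.43-fold in co-culture (log2 fold change of -1.76 ± 0.19, adjusted p = 8.64e-05). Hbegf was at 13.2 and 18.8 alone and 16.2 and 17.0 in co-culture, falls of 22.5-fold (log2 fold change of -4.40 ± 0.19, adjusted p = 3.18e-07) and 21.6-fold (log2 fold change of -4.33 ± 0.19, adjusted p = 3.95e-07). Areg was listed at 0 in all 4 cultured samples, which was at least 26.6-fold lower alone (log2 fold change of -3.28 ± 0.45, adjusted p = 0.000311) and at least 23.9-fold lower in co-culture. Summed hepatocyte markers (6 genes with Alb) were at 18649 to 23252 in day 0 SCA1+Msc cells, 38.0 to 54.2 alone and 25.4 to 385 in co-culture, and ductal markers at 1283 to 2705, 213 to 237 and 272 to 553, and their part in these falls was not tested.

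The other members of SCA1+Msc cells had no call in co-culture. Nrg1 TPM was 28.3 and 3.09 at day 0, 24.0 and 13.6 alone and 16.6 and 13.7 in co-culture, so that the day 0 replicates differed by more than the groups, and no Nrg1 comparison passed. Tgfa was at 8.71 and 10.2 at day 0, 6.31 and 1.65 alone and 4.75 and 6.49 in co-culture. Its fall in cells kept alone (log2 fold change of -1.24 ± 0.41, adjusted p = 0.033) lost the call without either day 0 sample or without replicate 2 of the cells kept alone (adjusted p up to 0.212). Btc was at 0.0359 to 5.02 and Egf at 0 to 1.30 in the 6 samples, with the highest Egf of the transwell samples in cells kept alone. Egfr was at 35.2 and 54.1 at day 0, 61.8 and 62.8 alone and 56.8 and 61.0 in co-culture, and neither log2 change passed, at 0.50 (95% interval 0.05 to 0.96) alone and 0.42 (95% interval -0.03 to 0.88) in co-culture. Erbb2 was at 15.4 and 15.3, 29.0 and 22.4 and 17.8 and 28.4. Its rise in cells kept alone (log2 fold change of 0.70 ± 0.22, adjusted p = 0.0289) lost the call under quantile normalization and without either day 0 sample or replicate 1 of the cells kept alone (adjusted p up to 0.171). Erbb3 was at 0 to 1.11.

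ERK response genes of SCA1+Msc cells fell as well, 8 of 11 in each culture, with Fos falling most (log2 fold change of -7.74 ± 0.17, adjusted p = 3.95e-09 alone and log2 fold change of -7.37 ± 0.17, adjusted p = 7.03e-09 in co-culture), and of the 11 Etv5 rose, in co-culture (log2 fold change of 1.15 ± 0.38, adjusted p = 0.034). The median log2 fold change of the list was -3.87 alone and -3.45 in co-culture, against 0.18 and 0.17 over all genes. Of all genes, 44.8% passed alone and 43.3% in co-culture, and each list count stands beside these shares. Of 10 inhibitors 7 fell alone and 5 in co-culture, with Spry1, an ERK pathway inhibitor, falling most (log2 fold change of -3.89 ± 0.36, adjusted p = 2.69e-05 alone), while Adam10 (log2 fold change of 1.99 ± 0.13, adjusted p = 3.96e-06 alone) and Adam17 rose and Rhbdf2 fell in each culture. Of 16 adaptors and kinases 7 rose and Grb2 fell in each culture, beside the 44.8% and 43.3% of all genes called. Between co-cultured and lone SCA1+Msc cells none of the 9 members passed in limma, where 0.127% of all genes passed. Of the 9, 1 had an unadjusted p under 0.05, for which no share over all genes was taken. That member was Ereg, whose replicates did not overlap, at 0.78 (95% interval 0.34 to 1.21) with an adjusted p of 0.288. For Egfr and Hbegf the differences were -0.08 (95% interval -0.54 to 0.37) and 0.07 (95% interval -0.36 to 0.50). Of the pathway genes only Ier3 passed (log2 fold change of 0.88 ± 0.09, adjusted p = 0.0107).

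At day 0, SCA1+Msc cells and DCs differed in 5 members (all genes 46.1%). Ereg was 229-fold higher in SCA1+Msc cells (log2 fold change of 6.60 ± 0.19, adjusted p = 3.23e-08), whereas Tgfa (log2 fold change of -2.55 ± 0.41, adjusted p = 0.000692), Hbegf (log2 fold change of -2.11 ± 0.19, adjusted p = 1.88e-05), Btc (log2 fold change of -4.34 ± 0.64, adjusted p = 0.000399) and Erbb3 (log2 fold change of -4.43 ± 0.36, adjusted p = 9.01e-06) were lower. After co-culture 7 members differed (all genes 36.6%). Ereg was still higher in SCA1+Msc cells than in organoids, by 3.08-fold (log2 fold change of 1.56 ± 0.19, adjusted p = 0.000144), and Areg was at least 1445-fold lower (log2 fold change of -9.05 ± 0.45, adjusted p = 2.81e-07). Tgfa, Hbegf, Btc and Erbb2 were lower as well, by 9.12-fold, 8.06-fold, 13.4-fold and 4.16-fold, in that order. Erbb3 was lower too (log2 fold change of -5.56 ± 0.36, adjusted p = 1.48e-06), at 0 and 0.714 TPM in co-cultured SCA1+Msc cells, so that no single fold is given. Nrg1 was at 16.6 and 13.7 TPM in SCA1+Msc cells and 3.54 and 2.92 in organoids, a difference of 1.93 (95% interval 0.29 to 3.58) that did not pass (adjusted p = 0.0666).

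The change from day 0 to co-culture was then compared between lineages by an interaction term. It differed in 4 members (all genes 28.3%), each more positive in organoids than in SCA1+Msc cells. Areg rose in organoids and fell in SCA1+Msc cells (log2 difference of 10.11 ± 0.64, adjusted p = 1.04e-05), and so did Ereg (5.04 ± 0.27, adjusted p = 5.33e-06). Erbb2 rose in organoids and changed by 0.52 in SCA1+Msc cells, which did not pass (1.62 ± 0.31, adjusted p = 0.00473). Hbegf fell in both, and the difference (0.83 ± 0.27, adjusted p = 0.0469) lost the call under quantile normalization and without any one of 9 samples, with adjusted p up to 0.14.

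Genes whose levels were most like those of a member were ranked over 12 homeostasis and 12 transwell samples by the smaller of both Pearson correlations of log2 values, as a description across samples that fall into groups. For Ereg they were Pcsk6 (0.985 and 0.959), Nox4 (0.97 and 0.955) and Ugdh (0.948 and 0.969), given with both correlations. For Hbegf they were Tnf (0.948 and 0.97), Fgd6 (0.947 and 0.97) and Tm4sf1 (0.943 and 0.985). For Erbb3 the correlations were the highest of the family, with Arhgef16 (0.990 and 0.992), Capsl (0.996 and 0.989) and Ggt1 (0.989 and 0.991), and for Btc they were Fam83h (0.941 and 0.977), Pard6b (0.921 and 0.953) and Krt8-ps (0.916 and 0.922). Tgfa was followed by F11r (0.958 and 0.940), Ctnna1 (0.969 and 0.938) and Tead4 (0.951 and 0.935). Areg, Nrg1, Egfr and Erbb2 had lower correlations, led by Scn8a (0.855 and 0.852), Arsa (0.814 and 0.823), Fblim1 (0.776 and 0.755) and Suclg1 (0.906 and 0.944).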

How the data were processed

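Expression values of 24 samples were used. According to the methods, Smart-seq2 libraries were read in single-read mode, aligned to GRCm38 with STAR 2.5.0a and counted per gene over exons with featureCounts (1.6.0 per the labels of the transwell samples), and strand was not stated. RPKM deposited by the authors for the transwell samples were scaled here to TPM by each sample's sum, leaving out 26 symbols that had turned into dates. For the homeostasis experiment the deposited score-like values are named TPM but sum to between 847270.0 and 1173510.0, since sample totals were reused down the table, and they were used as deposited, except for shares of the ligands. The 4 columns of the authors' group means were not used.

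Genes that reached 1 in at least 3 (homeostasis) or 2 (transwell) samples entered limma 3.58.1 (R 4.3.3) as log2(value + 1). Each experiment had its own fit, with a mean for every group and eBayes with a trend. Tests were two-sided, p-values were Benjamini-Hochberg adjusted over all genes tested, and the threshold was 0.05. The same mouse gave all 4 sorted populations, and mouse as a block lost no call of a member (mean correlation of residuals within a mouse 0.0373). In the transwell experiment nothing states that replicates share more than a number, and p-values measure only the spread between these samples. The fit was tested on simulated data. Alternatives were a pseudocount of 0.1, no filter, quantile normalization, TPM with the reuse undone or RPKM as deposited, a block, and each sample left out. Members, lists and tests were chosen with earlier results of these data known. Members were given statistics where they passed, pathway genes where they were the largest rise or fall of their list, and similar genes were the 3 with the highest smaller correlation, leaving out Gm and Rik symbols. Tables were handled in Python 3.11.15 (pandas 2.3.3, numpy 2.4.6) and drawn with matplotlib 3.10.9.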

Additional observations from a re-analysis of the deposited data

Results flagged for a closer look

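The change from day 0 to co-culture differed between organoids and SCA1+Msc cells, by an interaction term in limma, for 4 members. Organoids minus SCA1+Msc cells, the difference in log2 change was 10.11 for Areg, 5.04 for Ereg, 1.62 for Erbb2 and 0.83 for Hbegf. Areg was listed at 0 in both co-cultured SCA1+Msc samples, so its value depends on the pseudocount. Groups of 2 or 3 samples were too small for a test of single samples that stand apart.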

How the results depend on the processing

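Of 58 calls of members, 52 held under all alternatives that gave a value and none reversed. The fit without a filter is not among these, since it was used for the numbers of genes called only. Over 919 alternatives 893 kept the call and 26 lost it, and for 9 the gene fell under the filter, each Erbb3 with a DC sample left out. The 6 calls that were lost in part are named in the report. With 1 sample left out, the lone remaining sample of a transwell group is assumed to vary like the other groups. The number of members called then ranged from 4 to 5 for PDGFRα+SCA1+ cells against DCs, 4 to 7 for PDGFRα+SCA1- cells, 2 to 5 for PDGFRα-SCA1+ cells (2 without DC mouse A), 0 to 0 between the PDGFRα+ populations, 4 to 5 and 4 to 4 for PDGFRα-SCA1+ against PDGFRα+SCA1+ and PDGFRα+SCA1- cells, 3 to 6 for EM and 4 to 5 for co-cultured organoids against day 0, 3 to 3 between organoids, 4 to 5 for lone and 3 to 5 for co-cultured SCA1+Msc cells against day 0 (5 without day 0 replicate 2), 0 to 0 between these cultures, 5 to 6 and 7 to 9 between lineages at day 0 and in co-culture, and 3 to 7 for the interaction (7 without SCA1+Msc day 0 replicate 1). The cause was not tested, except that Erbb3 could not be fitted without a DC sample.

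Mouse pairs the homeostasis samples because each mouse gave all populations. The replicate block lost no call of a member in either experiment, and left 5 members called between PDGFRα+SCA1+ cells and DCs and 3 between organoid groups, but lowered the genes called between the PDGFRα+ populations from 100 to 20 and between co-cultured and lone SCA1+Msc cells from 23 to 5. With the transwell replicate number as a block, where the samples share no more than a number, 8 in place of 7 members passed between co-cultured SCA1+Msc cells and organoids. Quantile normalization moved the median of all genes between PDGFRα+SCA1- cells and DCs from -0.47 to -0.13 on the log2 scale, and no member reversed. Over all alternatives, the genes called ranged from 6 to 392 between the PDGFRα+ populations (54 under quantile normalization), from 0 to 50 between co-cultured and lone SCA1+Msc cells (40 with a pseudocount of 0.1, 50 without the filter) and from 1091 to 1307 between organoid groups with 1 of their samples left out, against 2340.0 with all samples. At 3 reads or fewer a level could not be told apart from absence.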
